A study of Mus musculus with 9 samples.

Results

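The muscle metabolism and calcium release genes are 10 genes that serve skeletal muscle but lie outside the sarcomere, the contractile unit itself. They are *Ckm*, *Ckmt2*, *Pygm*, *Pgam2*, *Eno3*, *Ryr1*, *Casq1*, *Sln*, *Pvalb* and *Mb*, and they were taken by gene name from the 3 deposited tables, which hold 16937 genes in all. All 10 were listed in each table. RNA was sequenced from brown adipose tissue (BAT) of 9 adult mice on the C57Bl/6J background, 3 in each of 3 groups. WT RT mice were wild type and stayed at 23 °C. WT Cold mice were wild type and spent 8 h at 4 °C in the light phase. GCN2 KO Cold mice had the same cold exposure and lacked *Gcn2* (*Eif2ak4*) in the whole body, and a knockout group at 23 °C was not analysed here. All mice had been housed singly before the experiment. The comparisons ask how cold changes BAT transcripts and how loss of the amino acid sensor GCN2 alters the response.

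The 3 libraries of each group are named A, B and C by the order of their codes. The codes carry no mouse number, and the letters do not pair mice across groups. Depth was even, between 27058799 and 30768064 reads on the listed genes. WT RT library codes begin with a different prefix from the codes of the cold mice, so library set and cold cannot be told apart. *Eif2ak4* was not lower in the GCN2 KO Cold-labelled libraries. It had 12.1 ± 0.459 CPM there (counts per 1000000 reads on listed genes, SD, n = 3), 7.70 ± 1.07 CPM in WT Cold and 12.3 ± 1.04 CPM in WT RT, so a direction drawn from that label rests on the label alone. The values are totals over the gene, so a deletion of some exons need not lower them. For 1 of the 3 knockout mice the sample title names both GCN2 KO and WT, and its genotype entry, which was used, gives GCN2 KO. Library C of each cold group stood apart. The Y-linked gene *Ddx3y* was at 7.02 CPM in WT Cold library C and 10.5 CPM in GCN2 KO Cold library C, against 84.8 to 144.3 CPM in the other 7 libraries. *Xist*, which is expressed from an inactive X chromosome, was at 130.6 and 127.5 CPM in the same libraries and at 11.2 to 43.5 CPM in the others. The study describes its groups as holding mice of both sexes and the labels give none, while *Ddx3y* was at 86.9 to 93.4 CPM in all 3 WT RT libraries, so no WT RT library resembled these. No library was sorted by these values, and the part of this difference in the results was not tested apart from leaving these libraries out. All 7 brown adipocyte markers were listed, and *Ucp1* was at 3592 CPM or more in every library.

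Skeletal muscle holds a small reserve of energy as phosphocreatine. Creatine kinase rebuilds ATP from it during a burst of work, with one form in the cytosol beside the filaments and another in mitochondria, and muscle glycogen phosphorylase feeds glycolysis from stored glycogen. A contraction starts when the voltage sensor of the membrane opens the ryanodine receptor and calcium leaves the sarcoplasmic reticulum, where calsequestrin holds it. A calcium pump then returns the calcium, while parvalbumin buffers it in the cytosol. BAT burns fuel for heat through UCP1, and its precursor cells share a lineage with those of skeletal muscle. BAT depots also lie against muscle in the body.

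RefSeq promoter sequences (build GRCm38.p6) were at hand for 9 of the 10 genes, in 12 windows because *Mb* and *Pvalb* have several start sites. This is not the build of the authors' alignment, whose processing notes name GRCm39. The 250 bases before the start are shown for *Ckm*, the most abundant of the 10 in reads, for *Pgam2* and *Pvalb*, the genes that held a MEF2 site, and for *Mb*, whose level followed *Ckm* least closely. Capitals mark an E-box (CANNTG, where muscle bHLH factors such as MyoD can bind) or a MEF2 site. For *Pvalb* the window with the MEF2 site is shown, and for *Mb* the window with the most matches.
Ckm (chr7:19410844-19411093, plus strand): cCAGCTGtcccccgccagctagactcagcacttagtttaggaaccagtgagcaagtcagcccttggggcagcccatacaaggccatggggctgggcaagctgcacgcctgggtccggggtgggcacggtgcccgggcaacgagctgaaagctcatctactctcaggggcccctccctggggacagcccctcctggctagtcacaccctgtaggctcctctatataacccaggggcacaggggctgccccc
Pgam2 (chr11:5803797-5804046, minus strand): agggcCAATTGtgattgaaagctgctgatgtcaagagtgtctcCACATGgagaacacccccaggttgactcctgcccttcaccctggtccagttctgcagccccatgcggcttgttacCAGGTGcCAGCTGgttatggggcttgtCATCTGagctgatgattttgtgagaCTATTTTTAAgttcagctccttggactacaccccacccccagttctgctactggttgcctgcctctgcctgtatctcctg
Pvalb (chr15:78206401-78206650, minus strand): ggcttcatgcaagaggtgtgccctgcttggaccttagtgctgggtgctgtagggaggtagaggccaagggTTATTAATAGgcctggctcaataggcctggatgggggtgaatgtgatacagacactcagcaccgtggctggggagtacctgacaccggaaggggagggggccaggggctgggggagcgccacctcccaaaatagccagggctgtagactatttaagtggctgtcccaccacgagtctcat
Mb (chr15:77022728-77022977, minus strand): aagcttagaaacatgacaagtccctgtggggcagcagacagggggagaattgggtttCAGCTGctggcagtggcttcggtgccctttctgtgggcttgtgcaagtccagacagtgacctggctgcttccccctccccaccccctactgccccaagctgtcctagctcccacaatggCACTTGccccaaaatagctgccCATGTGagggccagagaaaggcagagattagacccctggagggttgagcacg
Both strands were searched in each window of 250 bases. An E-box was present for 8 of the 9 genes, in at least 1 window, and in 66.2% of all 32817 promoter windows. *Ryr1* had none. A MEF2 site was present for *Pgam2* and *Pvalb* and in 2.92% of all windows. The CArG box, the motif of serum response factor, and the letters TATAAA were found in none of the 12 windows, and in 1.47% and 12.4% of all windows. These are matches of letters in a short window and were not tested as binding sites.

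Together the 10 genes took 0.0851 to 0.109% of reads in WT RT, 0.0751 to 0.131% in WT Cold and 0.016 to 0.0512% in the GCN2 KO Cold-labelled libraries. Compared per kilobase of annotated exon, with all exons of a gene merged, the cytosolic calcium buffer *Pvalb* led in WT RT at 138.1 ± 13.4 CPM per kb (SD, n = 3). *Ckm*, at 113.1 ± 16.8 CPM per kb, came next, and the gap between them was smaller than both SDs added together. *Mb* had 75.2 ± 9.0, *Eno3* 65.2 ± 10.5, *Pgam2* 47.8 ± 8.08 and *Pygm* 35.2 ± 4.86 CPM per kb, and neighbours among these 4 lay within both SDs of each other, while *Mb* lay below *Ckm* by more. Below a gap wider than both SDs, *Ckmt2* and *Casq1* followed at 23.7 ± 3.57 and 20.2 ± 2.22 CPM per kb, also within both SDs of each other. *Ryr1*, at 1.85 ± 0.269, and *Sln*, at 1.76 ± 0.867 CPM per kb, were far lower and overlapped. In WT Cold *Ckm* led at 133.7 ± 38.6 CPM per kb, and the only gap wider than both SDs was the one below *Casq1*. The order was that of WT RT in the GCN2 KO Cold-labelled libraries, from *Pvalb* at 48.0 ± 32.0 CPM per kb down to *Sln* at 0.362 ± 0.163.

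**Figure D1:**
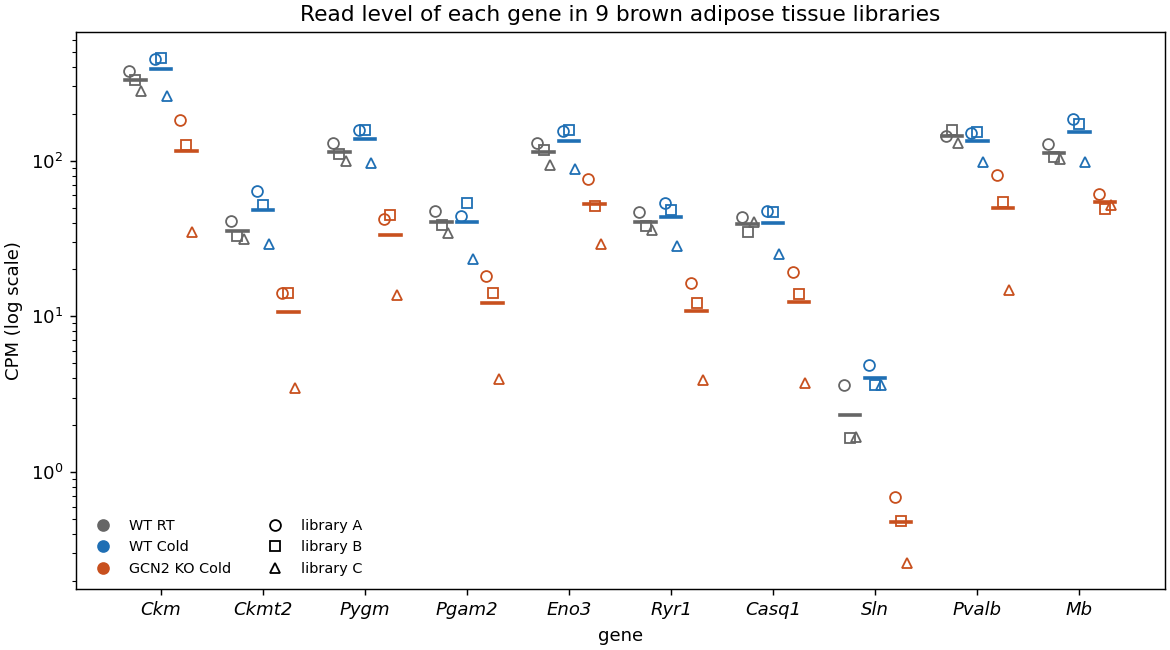
CPM of each of the 10 genes (log axis) in 9 BAT libraries, with circles, squares and triangles for libraries A, B and C, colours for groups and a bar at the mean of 3. All 3 libraries labelled GCN2 KO Cold lie below every wild type library for each gene, and library C is far below A and B for most genes but not for *Mb*.

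In wild type mice the values with cold were close to those at 23 °C for most of the 10 genes. A gene was called where its adjusted p was under 0.05 and its log2 fold change beyond 1 in size. Of the 10 genes, 0 were called between WT Cold and WT RT by limma, DESeq2 or edgeR, where 2.99% of 16679 genes passed as higher with limma and 3.26% with DESeq2. The median log2 fold change was 0.29, with a range of -0.05 to 0.96, against 0.003 over all genes. At an unadjusted p under 0.05, limma gave 1 gene, *Sln*, where 20.6% of all genes were higher at that level. *Sln* was also the only one whose normalized counts did not overlap between the groups, which held for 22.8% of all genes in the direction of higher in WT Cold.

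*Sln* encodes sarcolipin, a small peptide that uncouples ATP use by the calcium pump from calcium transport and takes part in heat production in muscle. Its level was 3.64, 1.66 and 1.67 CPM in WT RT libraries A, B and C and 4.84, 3.65 and 3.61 CPM in WT Cold. On this scale the highest WT RT library lay just above the lowest WT Cold library. Its normalized counts were 122.4 ± 18.6 in WT Cold and 66.4 ± 31.6 in WT RT (SD, n = 3), a log2 fold change of 0.96 (SE 0.32, adjusted p = 0.0589 with limma and 0.0442 with DESeq2). *Mb* encodes myoglobin, the oxygen store of muscle, and its log2 fold change was 0.48 (SE 0.21, adjusted p = 0.129 with limma and 0.0429 with DESeq2). The parvalbumin gene *Pvalb*, at -0.05 (SE 0.15), was the only one with a value under 0, but with CPM scaling *Pgam2* and *Casq1* were under 0 as well.

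WT Cold library C set much of this spread. Without it the median was 0.54, all 10 values were above 0, and 6 genes had an adjusted p under 0.05 with limma, where 16.2% of all genes were higher at that threshold. These were *Ckm*, *Ckmt2*, *Pygm*, *Eno3*, *Ryr1* and *Mb*, with log2 fold changes from 0.41 to 0.79, and none exceeded 1. With WT RT library A left out in place of it, *Sln* was called (log2 fold change 1.32, adjusted p = 0.0133 with limma).

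The 10 genes were lower in the GCN2 KO Cold-labelled libraries than in WT Cold. The median log2 fold change was -1.86, with a range of -2.96 to -1.29, against -0.003 over all genes. For all 10 the highest GCN2 KO Cold-labelled library lay below the lowest WT Cold library, which held for 10.7% of 16312 genes. With limma, 1 gene, *Sln*, passed both thresholds, where 0.196% of all genes passed as lower, and all 10 had an unadjusted p under 0.05, where 7.49% of all genes were lower at that level. DESeq2, the tool of the study's methods, called 4 of them, *Ckmt2*, *Pygm*, *Sln* and *Mb*, against 1.12% of all genes. edgeR called *Sln*, against 0.147% of all genes.

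For these tissue samples, fewer muscle cells and less RNA per cell cannot be told apart. The muscle fibre markers moved with the genes. The 9 fast fibre markers include the calcium pump gene *Atp2a1*, which lies outside the sarcomere and is also in the calcium reuptake list. These 9 markers summed to 1547 to 2636 CPM in WT Cold and 193.1 to 908.5 CPM in the GCN2 KO Cold-labelled libraries. Their median log2 fold change was -1.99. Their sum was 1609 to 2021 CPM in WT RT. The 6 slow markers summed to 292.6 to 485.9 CPM in WT Cold and 20.8 to 87.6 CPM in the GCN2 KO Cold-labelled libraries, with a median of -3.05. In WT RT the slow markers summed to 176.3 to 230.5 CPM, below every WT Cold library. Their median with cold in wild type was 0.97, with 2 of the 6 called by limma, where 2.99% of all genes passed as higher, beside 0.96 for *Sln* and 0.48 for *Mb* in that comparison. The leukocyte markers had a median of -1.54 in the same comparison. The 7 markers listed for both fibre types, which include *Tnnt3* of the fast list, had a median of -1.89. None of the 3 lists had a gene at 0 in any library. The 7 brown adipocyte markers include *Adipoq*, *Pparg*, *Fabp4* and *Plin1*, which other adipocytes also express. These 7 had a median of 0.14 and summed to 23490 to 25550 CPM in WT Cold and 27640 to 28090 CPM in the GCN2 KO Cold-labelled libraries. At an unadjusted p under 0.05 limma gave 3 of them as higher, where 15.3% of all genes were at that level in either direction. Satellite cell markers *Pax7* and *Myf5* were not analysed here, and *Myod1* and *Myog* together did not exceed 1.28 CPM in any wild type library. Of the cardiac markers *Nppa*, *Myl7* and *Tnni3* were not analysed here either. The other 3, *Myh6*, *Tnnt2* and *Ryr2*, summed to 8.97 to 10.5 CPM in WT Cold and 7.35 to 10.2 CPM in the GCN2 KO Cold-labelled libraries. The medians were 0.10 for 5 smooth muscle markers, -0.19 for 3 endothelial markers, -0.35 for 4 leukocyte markers and -1.92 for 3 markers of the neuromuscular junction, and limma called 0 of these, with 4 lower at an unadjusted p under 0.05 and 1 call by DESeq2, where 7.49% and 1.12% of all genes were lower by these rules. The part of muscle tissue in the results was not tested.

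Both phosphocreatine genes had lower values. *Ckm*, the cytosolic creatine kinase of muscle, was at 379.4, 327.9 and 281.5 CPM in WT RT libraries A, B and C, at 449.2, 459.7 and 259.9 CPM in WT Cold, and at 183.0, 126.2 and 34.8 CPM in the GCN2 KO Cold-labelled libraries. The groups did not overlap between the cold genotypes, and within the knockout label the highest library was 5.26 times the lowest. The log2 fold change was -1.90 (SE 0.56, adjusted p = 0.186 with limma and 0.191 with DESeq2). *Ckmt2*, its mitochondrial partner in striated muscle, was at 63.8, 51.9 and 29.3 CPM in WT Cold and at 14.2, 14.1 and 3.47 CPM in the GCN2 KO Cold-labelled libraries. Library C was the lowest in both groups, and A and B were alike in the knockout label only. Its log2 fold change was -2.25 (SE 0.55, adjusted p = 0.141 with limma and 0.0459 with DESeq2).

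Of the glycogen and glycolysis genes, *Pygm*, the muscle glycogen phosphorylase that is missing in McArdle disease, was at 156.6, 157.8 and 96.8 CPM in WT Cold and at 42.2, 44.5 and 13.7 CPM in the GCN2 KO Cold-labelled libraries. In WT RT it was at 130.5, 109.6 and 99.95 CPM, above every library of the knockout label. Its log2 fold change against WT Cold was -2.06 (SE 0.44, adjusted p = 0.109 with limma and 0.0167 with DESeq2). *Pgam2*, the muscle phosphoglycerate mutase, ranged from 23.5 to 53.5 CPM in WT Cold and from 3.95 to 18.3 CPM in the GCN2 KO Cold-labelled libraries, a log2 fold change of -1.80 (SE 0.56, adjusted p = 0.199 with limma). *Eno3*, the muscle enolase, ranged from 87.9 to 158.1 and from 29.3 to 76.4 CPM and had the smallest difference of the 10, -1.29 (SE 0.35, adjusted p = 0.17 with limma). The gap between the groups was narrow for *Eno3*, where library A of the knockout label came close to WT Cold library C.

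The calcium release genes showed the same pattern. *Ryr1*, the calcium release channel of the sarcoplasmic reticulum, was at 53.8, 48.2 and 28.4 CPM in WT Cold and at 16.3, 12.1 and 3.88 CPM in the GCN2 KO Cold-labelled libraries, a log2 fold change of -2.07 (SE 0.50, adjusted p = 0.141 with limma and 0.0539 with DESeq2). *Casq1*, the calcium store protein of fast fibres, ranged from 25.1 to 47.4 CPM in WT Cold and from 3.73 to 19.4 CPM in the GCN2 KO Cold-labelled libraries. Its log2 fold change was -1.81 (SE 0.57, adjusted p = 0.203 with limma). Neither gene was called by any of the 3 tools in this comparison.

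Among the genes of calcium reuptake and buffering, *Sln* fell the furthest and was the only one of the 10 that limma called. It was at 0.687, 0.487 and 0.259 CPM in GCN2 KO Cold-labelled libraries A, B and C, which is 19, 14 and 7 reads, against 104 to 140 reads in WT Cold. Its normalized counts were 13.99 ± 6.20 against 108.9 ± 16.3 (SD, n = 3), 7.76 times lower on the log2(value + 1) scale, where the added 1 makes folds of low genes too small. The log2 fold change was -2.96 (SE 0.36, adjusted p = 0.0335 with limma, 1.4e-10 with DESeq2 and 0.0291 with edgeR). The limma call held without GCN2 KO Cold library A (adjusted p = 0.0446) and was lost in the other 5 single omissions, with adjusted p = 0.128 and 0.0501 without libraries B and C of that label and 0.197, 0.206 and 0.0703 without WT Cold libraries A, B and C. Over the single omissions the log2 fold change of *Sln* ran from -3.25 to -2.61. *Pvalb* was at 150.2, 152.7 and 97.8 CPM in WT Cold and at 80.7, 54.6 and 14.7 CPM in the GCN2 KO Cold-labelled libraries, a log2 fold change of -1.59 (SE 0.56, adjusted p = 0.245 with limma).

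*Mb* differed from the rest in how even it was within the knockout label. Its level was 60.97, 49.2 and 52.0 CPM in GCN2 KO Cold-labelled libraries A, B and C, 185.2, 171.4 and 98.8 CPM in WT Cold and 127.5, 106.0 and 102.9 CPM in WT RT. The highest library of the knockout label was 1.24 times the lowest, where the other 9 genes ranged from 2.61 to 5.50 times. In WT Cold the same ratio was 1.87 for *Mb* and 1.34 to 2.27 for the other 9 genes. The log2 fold change of *Mb* against WT Cold was -1.33 (SE 0.22, adjusted p = 0.0616 with limma and 3.36e-08 with DESeq2). Without WT Cold library C, limma called *Mb* at an adjusted p of 0.00465.

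Leaving out library C of both cold groups, a choice made after seeing the data, took the median of the 10 to -1.52 and the value of *Mb* to -1.57. With these libraries out, limma called 8 of them, where 0.680% of all genes passed as lower. The exceptions were *Eno3*, with an adjusted p of 0.0506, and *Pvalb*, with 0.0686. Single omissions gave 0 or 1 call, where 0 to 12 of all 16312 genes passed as lower. The 10 genes stayed lower in the GCN2 KO Cold-labelled libraries under each omission. Without GCN2 KO Cold library C alone the median was -1.25, with *Casq1* at -1.10, *Eno3* at -0.93 and *Pvalb* at -0.87. In that setting limma called 0 of the 10, where 6 of all 16312 genes passed as lower.

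**Figure D2:**
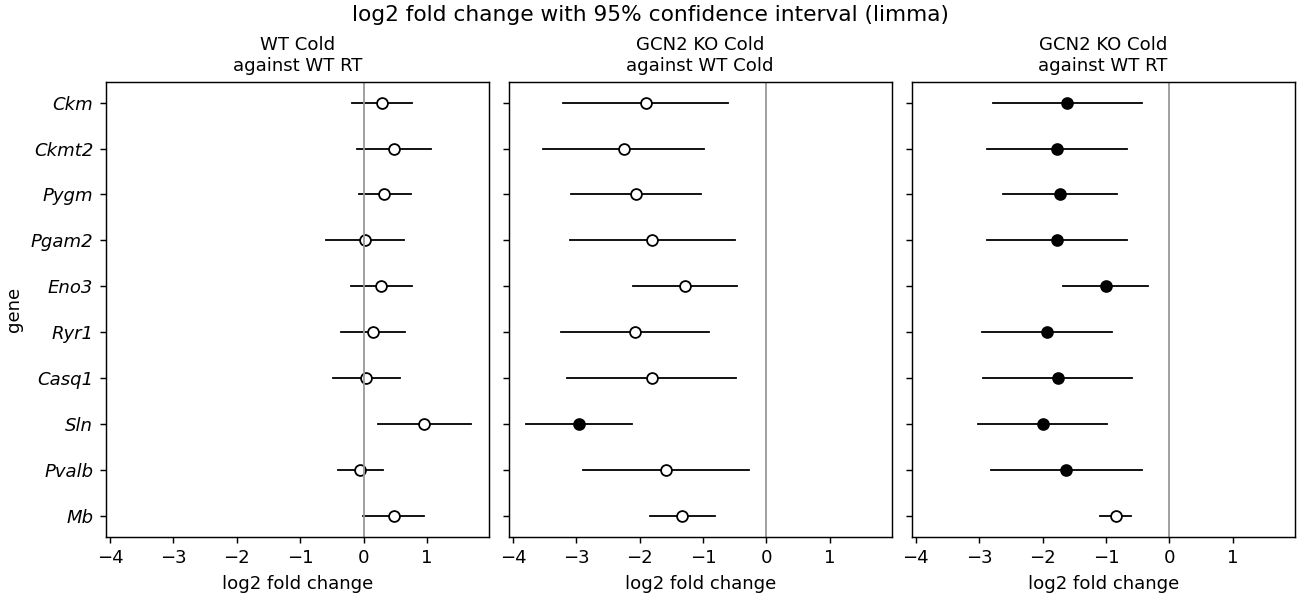
log2 fold change of each gene (x axis) in 3 comparisons, as a point with its 95% confidence interval from limma, filled where the gene was called. In WT Cold against WT RT the points lie between -0.05 and 0.96, in GCN2 KO Cold against WT Cold only *Sln* is filled, and against WT RT 9 of 10 are filled.

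Against WT RT, which differs from GCN2 KO Cold in both temperature and genotype, the 10 genes were lower as well. The muscle fibre markers of the fast, slow and both-type lists had medians of -1.68, -2.04 and -1.74 in this comparison. The leukocyte markers had one of -1.87, with 3 of 5 called lower by limma. Brown adipocyte and smooth muscle markers had medians of 0.50 and 0.86. The part of all these markers in the result was not tested. This comparison shares its GCN2 KO Cold libraries with the one above and its WT RT libraries with the cold comparison. The median log2 fold change was -1.75, with a range of -2.00 to -0.85, against 0.009 over all genes. With limma, 9 passed both thresholds, where 7.58% of 16560 genes passed as lower, and all 10 had an adjusted p under 0.05, where 17.8% of all genes were lower at that level. The value of *Mb* was -0.85 (SE 0.11), short of the fold threshold, and the lowest adjusted p of the 10, 0.000929. *Eno3* lay just past the fold threshold at -1.0 (SE 0.29, adjusted p = 0.0299 with limma). DESeq2 called 5 genes, *Ckmt2*, *Pygm*, *Pgam2*, *Ryr1* and *Sln*, against 7.39% of all genes, and edgeR called those and *Casq1*, against 7.80% of all genes. No library overlapped between the groups for any of the 10, as for 25.5% of all genes.

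For *Ckm* the log2 fold change was -1.61 (SE 0.51, adjusted p = 0.0401 with limma and 0.0976 with DESeq2), and *Pvalb* one of -1.63 (SE 0.52, adjusted p = 0.0408 and 0.102). In GCN2 KO Cold library C *Ckm* was 9.48 times and *Pvalb* 9.80 times below the WT RT mean in CPM, where in library A they were 1.80 and 1.78 times below. Without library C the median over the 10 genes was -1.08, and limma called 6 genes, where 6.12% of all genes passed as lower. Without WT RT library A, B or C it called 3 genes in each case, where 6.12%, 5.79% and 6.39% of all genes passed as lower. Without the mean-variance trend it called 3 as well, against 7.00% of all genes. *Ryr1* had the largest difference after *Sln*, -1.93 (SE 0.45, adjusted p = 0.0118 with limma).

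Set against *Ckm* in the same library, most of the genes varied far less than in CPM. The log2 ratio of reads to *Ckm* had an SD over the 9 libraries between 0.16 and 0.23 for *Ckmt2*, *Pygm*, *Pgam2*, *Ryr1*, *Casq1* and *Pvalb*, while log2 CPM of these genes varied with an SD of 1.11 to 1.27. The groups were not all alike in these ratios. *Pvalb* reads were 33.2 to 37.6% of *Ckm* reads in WT Cold, 42.2 to 44.1% in GCN2 KO Cold and 38.1 to 47.98% in WT RT, so WT Cold overlapped with neither. *Pgam2* had 9.05 to 11.6% in WT Cold and 11.8 to 12.5% in WT RT, also without overlap. *Ckmt2* had 11.3 to 14.2% in WT Cold, 10.1 to 11.1% in WT RT and 7.75 to 11.2% in GCN2 KO Cold. *Casq1* had 9.65 to 10.5%, 10.6 to 14.4% and 10.6 to 10.99% in the same order. For both genes WT Cold overlapped with neither group, by narrow margins. *Ryr1* had 8.9 to 11.2% in GCN2 KO Cold and 11.7 to 12.8% in WT RT, again without overlap. *Pgam2* had 9.98 to 11.4% in GCN2 KO Cold, below WT RT as well. The share of all genes that separate in a ratio to *Ckm* was not computed. *Eno3*, *Sln* and *Mb* were less fixed, with SDs of 0.43, 0.66 and 0.69. *Mb* reads were 33.3 and 39.0% of *Ckm* reads in GCN2 KO Cold libraries A and B, and 32.3 to 41.2% in the 6 wild type libraries. In GCN2 KO Cold library C they were 149.4%, where *Mb* was level with the other libraries of the label and *Ckm* was far lower. *Eno3* had 84.2% in that library, 41.8 and 40.8% in libraries A and B, and 33.3 to 35.7% in wild type. All 3 libraries of the label were above all 6 wild type libraries in this ratio. The log2 ratio of *Eno3* was 0.62 higher in GCN2 KO Cold than in WT Cold. Library C carried much of this, with A, B and C at -1.26, -1.29 and -0.25 and the WT Cold mean at -1.55.

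The share of *Sln* moved the other way. Its reads were 0.376, 0.386 and 0.744% of *Ckm* reads in the GCN2 KO Cold-labelled libraries and 1.08, 0.794 and 1.39% in WT Cold, a log2 ratio lower by 1.15. In WT RT the share was 0.961, 0.506 and 0.595%, which overlapped with the knockout label. For *Mb* the same difference was 0.58, with library C alone outside the range of WT Cold on the high side. Its log2 ratios in libraries A and B were -1.59 and -1.36, against a WT Cold mean of -1.37. The direction for *Mb* therefore rested on library C. The ratios are given as a description.

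**Figure D3:**
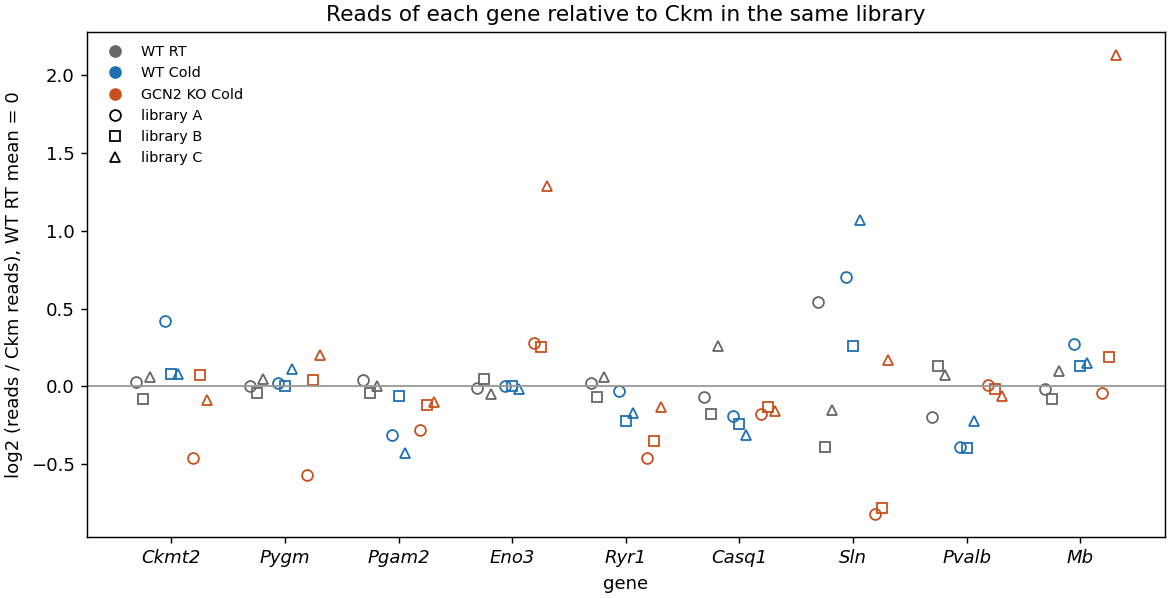
log2 ratio of each gene's reads to *Ckm* reads in the same library (y axis, WT RT mean set to 0), with colours for groups and symbols for libraries. Most points lie near 0, and the triangles of GCN2 KO Cold library C stand out for *Mb* and *Eno3*.

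The relatives of these genes, which are used more widely outside skeletal muscle, are given beside them. Over 13 relatives the median log2 fold change in GCN2 KO Cold against WT Cold was 0.13, with a range of -1.47 to 0.38. limma called 0 of them, where 0.196% of all genes passed as lower, and at an unadjusted p under 0.05 it gave 3 higher and 1 lower, where 15.3% of all genes were at that level. The lowest value was that of *Casq2*, the calsequestrin of heart and slow muscle, which had 1.97 ± 0.458 CPM against 5.94 ± 0.978 in WT Cold (SD, n = 3), and DESeq2 called it alone (log2 fold change in limma -1.47, SE 0.22, adjusted p = 0.0503 with limma and 1.95e-05 with DESeq2). *Ckb*, the brain type creatine kinase, had 232.0 ± 56.7 CPM in the GCN2 KO Cold-labelled libraries and 231.3 ± 57.1 in WT Cold. Both were far above WT RT, at 53.6 ± 7.54 CPM, and the rise with cold in wild type passed both thresholds (log2 fold change 2.17, SE 0.17, adjusted p = 0.000294 with limma). In wild type mice *Pygb* and *Pygl*, the brain and liver glycogen phosphorylases, fell with cold by 1.15 and 1.17 on the log2 scale (adjusted p = 0.000944 and 0.000588 with limma). *Pygl* went from 911.9 ± 56.2 to 384.7 ± 42.3 CPM, and against WT Cold its value in the GCN2 KO Cold-labelled libraries was 0.38 higher (adjusted p = 0.155 with limma).

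*Eno1*, the widespread enolase, had 3300 ± 306 CPM in WT RT and 1737 ± 131 in WT Cold, which gives a log2 value of -0.84 (SE 0.11, adjusted p = 0.00176 with limma) under the fold threshold. Reads of *Eno1* and its near copy *Eno1b* may be split between them, and *Eno1b* had 5.68 to 7.98 CPM as group means. The rest of the list did not pass the thresholds in either comparison. *Ckmt1*, the ubiquitous mitochondrial creatine kinase, had log2 fold changes of 1.02 with cold and -0.10 between the cold genotypes. Values for the widespread mutase *Pgam1* were 0.03 and 0.22, for the other ryanodine receptors *Ryr2* and *Ryr3* -0.58 and 0.30, and 0.25 and 0.15, for the neuronal enolase *Eno2* 0.21 and -0.13, for *Eno1b* 0.34 and -0.38, for cytoglobin (*Cygb*) -0.03 and -0.25, and for phospholamban (*Pln*), the pump regulator of the heart, -0.07 and 0.34.

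**Figure D4:**
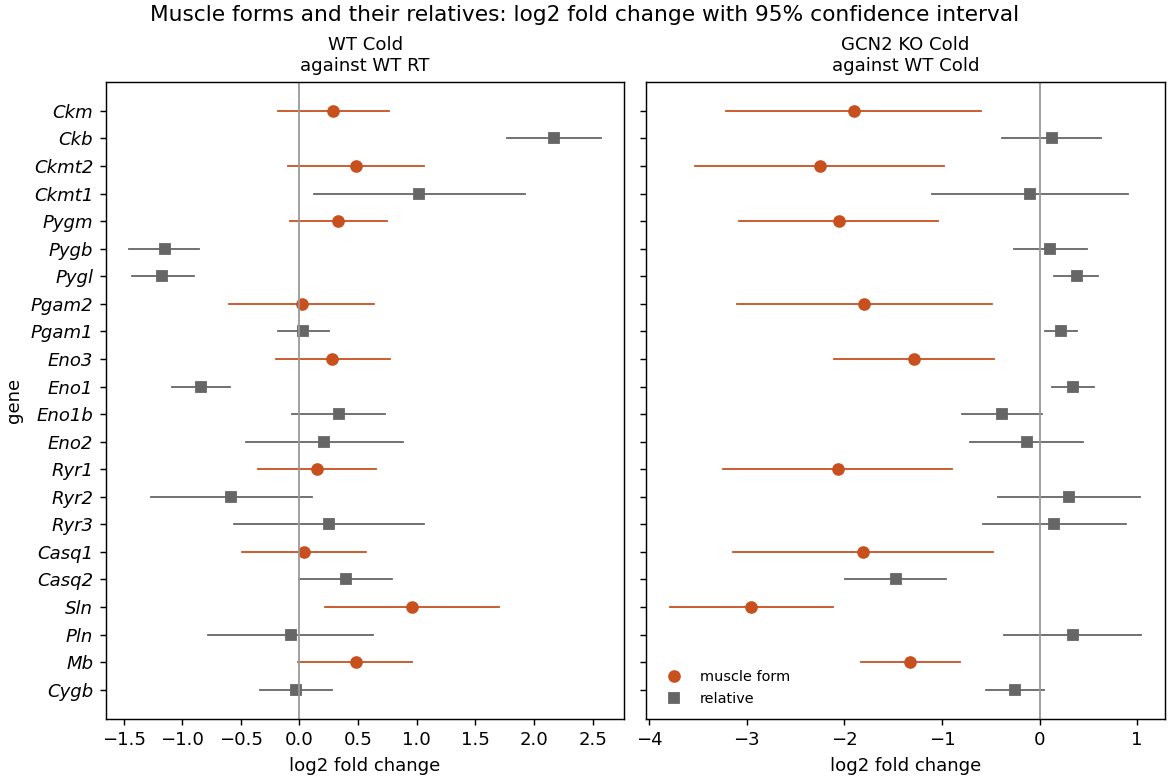
log2 fold change (x axis) with 95% confidence interval from limma for 9 muscle forms (circles) and their 13 relatives (squares), in WT Cold against WT RT and GCN2 KO Cold against WT Cold. In the second panel the circles lie between -2.96 and -1.29, and all squares but *Casq2* lie between -0.38 and 0.38.

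The wider pathways of the 10 genes differed in their medians. In excitation-contraction coupling and calcium release, 19 genes including *Ryr1* and *Casq1* gave a median of -1.68 in GCN2 KO Cold against WT Cold, and in 16 of them the groups did not overlap, with the knockout label lower, as for 10.7% of all genes. limma called 1 of the 19, *Stac3*, an adaptor of the voltage sensor (-1.68, adjusted p = 0.0439), and DESeq2 called 10, all lower, against 0.196% and 1.12% of all genes. The largest values were those of *Cacna1s*, the voltage sensor itself (-2.61, adjusted p = 0.142 with limma and 0.0424 with DESeq2), *Scn4a*, the sodium channel of muscle (-2.37, adjusted p = 0.079 and 6.23e-07), and *Hrc*, a calcium binding protein of the reticulum (-2.19, adjusted p = 0.111 and 0.0162). Against WT RT all 19 values were below 0, and limma called 13 of them and DESeq2 11, where 7.58% and 7.39% of all genes passed as lower. With cold in wild type 0 of the 19 were called by limma or DESeq2, and 4, all higher, had an unadjusted p under 0.05 with limma, where 40.9% of all genes did in either direction.

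Glycogen and glycolysis behaved differently as a list. Its 21 genes had a median of 0.07 in GCN2 KO Cold against WT Cold, limma called 0 of them, and DESeq2 called 2, *Pygm* and *Phkg1*, where it called 1.12% of all genes as lower. At an unadjusted p under 0.05 limma gave 6 lower and 4 higher, where 15.3% of all genes were at that level in either direction. The 4 higher were the widely used *Tpi1* (0.40), *Ldha* (0.31), *Pkm* (0.26) and *Gapdh* (0.25), named after their values were seen. The largest values outside the 10 genes were those of *Ppp1r3a*, which targets a phosphatase to muscle glycogen (-1.60, adjusted p = 0.256 with limma), *Phkg1*, the muscle subunit of phosphorylase kinase (-1.31, adjusted p = 0.15), and *Pfkm*, the muscle phosphofructokinase (-0.69, adjusted p = 0.199). Against WT RT limma called 5 of the 21, all lower, *Pygm*, *Pgam2*, *Eno3*, *Phkg1* and *Ppp1r3a*, where 7.58% of all genes passed as lower.

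In the phosphocreatine and adenylate list 10 genes were tested in GCN2 KO Cold against WT Cold. limma called 0 of them, with 3 lower at an unadjusted p under 0.05, where 7.49% of all genes were lower at that level. DESeq2, which called 1.12% of all genes as lower, called 2, *Ckmt2* and *Ampd1*, the muscle AMP deaminase (-1.94, adjusted p = 0.112 with limma and 6.28e-05 with DESeq2). *Gamt*, an enzyme of creatine synthesis, and *Slc6a8*, the creatine transporter, had values of 0.34 and -0.26 (adjusted p = 0.612 and 0.602 with limma). Among 7 genes of calcium reuptake and buffering, limma called *Sln* alone, where 0.196% of all genes passed as lower, and 3 were lower at an unadjusted p under 0.05, where 7.49% of all genes were. The median of the 7 was -1.59, and without *Sln* and *Pvalb* it was -0.24. *Atp2a1*, the calcium pump of fast fibres, had a value of -2.26 (adjusted p = 0.142 with limma and 0.0613 with DESeq2), while *Atp2a2*, the pump of slow muscle and many other cells, had -0.24 (adjusted p = 0.41 with limma). In the list with *Mb*, the muscle cytochrome oxidase subunit *Cox6a2* had -2.26 (adjusted p = 0.118 with limma and 0.0258 with DESeq2). The subunits *Cox8b* and *Cox7a1*, which brown fat also uses, had 0.51 and 0.31 (adjusted p = 0.0955 and 0.221 with limma). limma called 0 of the 5 genes of that list, with 2 higher and 2 lower at an unadjusted p under 0.05, where 15.3% of all genes were at that level.

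Over the 9 libraries the genes rose and fell with each other and with the sarcomere. Pearson's r of a gene's log2 CPM with the mean of the other 9 lay between 0.965 and 0.997 for 8 of the 10, and was 0.912 for *Sln* and 0.886 for *Mb*. The search covered 14046 genes, a count that includes the 10 themselves. The other genes most like the mean of the 10 were *Eef1a2*, the elongation factor of muscle and neurons (r = 0.997), *Myh4*, the fast IIb myosin heavy chain (0.996), and *Cmya5* (0.995). *Ldb3*, *Rpl3l*, *Myot*, *Tnni2*, *Myoz1*, *Acta1*, *Hrc*, *Asb2*, *Cacna1s*, *Ttn* and *Trim54* followed, down to r = 0.992. The points share libraries, groups and depth, and the values are given as a description.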

How the data were processed

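RNA from BAT of 9 mice was analysed. Per the submitters' processing notes and the paper's methods, the authors trimmed reads (Trimmomatic 0.36), aligned them (STAR 2.5.2b), counted them per gene (featureCounts, Subread 1.5.2) and ran DESeq2. The deposited signal is a read count divided by a size factor, normalized within each of 3 tables. These tables also hold the authors' fold changes and p-values, which were not used. Whole reads were recovered for 100% of values (tolerance 0.1 read). CPM divides them by all reads on listed genes. Libraries were tied to groups by the table in which their code occurs, not to individual mice.

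limma 3.58.1 (R 4.3.3, mean-variance trend) was run on log2(value + 1) over every gene of a table, 2 groups per fit, with Benjamini-Hochberg adjustment, two-sided. Calls needed an adjusted p under 0.05 together with a log2 fold change beyond 1 in size, the thresholds of the paper. DESeq2 1.42.0 and edgeR 4.0.16 (quasi-likelihood) were run on the recovered reads. The scripts were checked on simulated data. The libraries are separate mice of a group. Exon lengths are from GENCODE M21 (GRCm38). The depth leaves the spread between mice as the limit, except for *Sln*.

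The 10 genes and all lists were chosen with earlier results of these data known. Named genes were the 10, all relatives, the 3 largest differences per pathway list at a mean normalized count of at least 50 and the 15 genes of highest correlation at a mean CPM of at least 1, of which 1 is not reported here. *Stac3* was named after its value was seen, as were *Ddx3y*, *Xist* and *Ucp1*.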

Additional observations from a re-analysis of the deposited data

How the results depend on the processing

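No paired analysis was possible because the columns carry no replicate numbers. In GCN2 KO Cold against WT Cold, 1 of the 10 genes was called, and this became 4 with DESeq2, 5 with all 9 libraries in the fit, 0 without the mean-variance trend, 8 without library C of both cold groups (added after seeing the data) and 0 to 1 with single libraries left out. In GCN2 KO Cold against WT RT, 9 became 5 with DESeq2, 3 without the trend and 3 to 9 with single libraries left out, the lowest count coming without any 1 of the WT RT libraries. Over all genes that comparison gave 1255 lower calls, 1224 with DESeq2, 1159 without the trend and 959 to 1290 with single libraries left out. In WT Cold against WT RT, 0 became 0 to 1 with single libraries left out, where 404 to 697 of all 16679 genes passed as higher. All 10 genes were lower in both comparisons of GCN2 KO Cold under every alternative run. In WT Cold against WT RT, *Pgam2* was at -0.06 and *Casq1* at -0.04 both with CPM scaling and with all 9 libraries in the fit. With single libraries left out, *Pgam2* ran from -0.22 to 0.35, *Casq1* from -0.10 to 0.32, *Ryr1* from -0.02 to 0.41 and *Pvalb* from -0.16 to 0.15. Of 430 values of single genes under alternatives, 14 changed direction, 42 lost a call and 18 gained one. Where a value changed with a tool, a scaling or the trend, the cause was not tested. CPM scaling moved the median of all genes by -0.08, -0.12 and -0.19 in the 3 comparisons, and in GCN2 KO Cold against WT RT it took the split of calls from 499 higher and 1255 lower to 326 and 1769. In GCN2 KO Cold against WT Cold, the calls over all genes were 42 with limma (10 higher and 32 lower), 209 with DESeq2 (26 and 183), 189 with all 9 libraries (15 and 174), 6 without the trend (5 and 1), 130 without both libraries C and 3 to 22 with single libraries left out. Counting limits only *Sln*, at 7 to 19 reads in the libraries labelled GCN2 KO Cold.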
